A study of Mus musculus with 8 samples.

Results

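Oxidative phosphorylation was examined through 95 nuclear genes of complex I, complex III, complex IV and the ATP synthase in murine bone-marrow-derived macrophages (BMDMs). The members were the listed genes that GENCODE names as protein-coding with a symbol that starts with Nduf, Uqcr or Atp5, or with Cox followed by a digit, and that had a mean of at least 10 normalised counts over the 8 samples. Of 103 such genes among 55359 listed, 95 reached this mean. Cox5b-ps, Cox6a2, Cox6b2, Cox7b2, Cox8b, Cox8c, Ndufa4l2 and Ndufb11b, the other 8, did not. By role, 45 members belong to complex I (7 core subunits, 30 accessory subunits and 8 assembly factors), 8 to complex III, 23 to complex IV (13 subunits, the paralogue Cox7a2l and 9 assembly factors) and 19 to the ATP synthase, including its inhibitor Atp5if1.

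Oxidative phosphorylation takes place in the inner mitochondrial membrane. Complex I oxidises NADH, complex III passes electrons on to cytochrome c, and complex IV hands them to oxygen, while protons are pumped out of the matrix and flow back through the ATP synthase to make ATP. Most subunits are nuclear-encoded and are put together with mitochondrially encoded ones by dedicated assembly factors, which also deliver copper, heme and iron-sulfur centres. Mϕ exposed to LPS and IFNγ are known to shift from respiration to glycolysis, whereas Mϕ that have taken up apoptotic cells are known to use fatty acids of their prey.

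All samples were wildtype C57BL/6 BMDMs, grown from the marrow of adult male and female mice over 7 days with M-CSF and GM-CSF (20 ng/mL each). Ctrl Mϕ were naïve and unstimulated. LPS Mϕ were naïve Mϕ that were kept with LPS at 100 ng/mL together with IFNγ at 100 U/mL over 6 h. Eff Mϕ had been co-cultured for 16 h with apoptotic NIH-3T3 CA cells, 5 per Mϕ, and LPSEff Mϕ received the same stimulation as LPS after that co-culture. NIH-3T3 CA is a mouse fibroblast line whose caspase-8 is switched on by a dimerizer, which was present at 10 nM during co-culture. Ctrl and LPS samples are not labelled as having received dimerizer, so that dimerizer and apoptotic cells cannot be told apart. All Mϕ were harvested as CD45+ cells on magnetic beads. Each group had n = 2 samples, and since the labels do not say whether these came from separate animals or cultures, p-values measure only the spread between these samples, which may be technical.

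Recovered reads ranged from 3481288 to 12020918 per sample, so that a floor of 3 reads stood for 1.73 to 5.71 normalised counts. Such floors cover counting error only. The median member had 117 to 483 reads in a sample, and the lowest value, 3 reads, was that of Uqcrb in Ctrl 1. All 10 macrophage markers were measured (Ptprc, Adgre1, Csf1r and others, summing to between 108856 and 164148 normalised counts), and the 5 lymphocyte markers summed to at most 20.7. Sums of 12 fibroblast markers were 1114 and 1052 (Ctrl), 2006 and 1580 (LPS), 4386 and 6542 (Eff), and 11069 and 8428 (LPSEff). None of the 12 was at 0 in all samples. Since the prey is a mouse line too, its transcripts of the 95 genes count with those of the Mϕ, and the part of fibroblast RNA in the values was not tested. In such bulk samples, fewer cells of a type and less RNA per cell cannot be told apart either. The sums of 6 dendritic cell markers were 1312 to 2580 without LPS/IFNγ and 6486 to 16026 with it, and those of 7 neutrophil markers were 694 to 1465 without and 1743 to 2500 with it. The part of either cell type in the LPS/IFNγ comparisons was not tested.

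Levels of the members were compared as mean normalised count over the 8 samples per kb of the canonical transcript. Cox4i1, the main isoform of complex IV subunit 4, had the highest level of all members with 3153 per kb, followed by the catalytic β-subunit of the ATP synthase, Atp5f1b, with 2849 per kb. The highest level in complex I was that of the accessory subunit Ndufa2 with 1483 per kb, and in complex III that of the small subunit Uqcr10 with 728 per kb. Lowest in their complexes were the assembly factors Ndufaf1 (6.73 per kb) and Cox20 (10.3 per kb), Uqcrb of complex III (49.8 per kb) and the c-ring gene Atp5mc2 (21.99 per kb). The 17 assembly factors had a median level of 31.9 per kb, below the medians of complex I (162 per kb, its assembly factors included), complex III (404 per kb) and the ATP synthase (335 per kb).

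Several subunits are copied almost letter by letter into processed pseudogenes, and htseq-count in its default mode leaves out reads that map to more than 1 place. A transcript was therefore cut into all its 50-base windows, and each window was searched in GRCm39. For 38 of the 95 members no window had an exact copy elsewhere, whereas 14 had copies of more than 20% of their windows. Reads trimmed of adapters can be shorter, and shorter windows are copied more often. In 30-base windows, the share was 20.3% for Uqcr10 (0% at 50 bases) and 34.8% for Atp5me (6.21%). Cox4i1 and Atp5f1a had 0% at either length. The shares below are for 50 bases. The highest shares were those of the c-ring genes Atp5mc2 (88.4%) and Atp5mc1 (84.4%), of Ndufs5 (75.4%), Cox7c (71.5%), Atp5mg (68.7%) and Uqcrb (58.7%). The following windows of the coding sequence are shown as examples of stretches in which an exact read cannot be assigned to the subunit, and all letters of both are part of the copy. The window of Atp5mc2 lies at chr15:102573563-102573612 on the minus strand of GRCm39 and has 3 exact copies. That of Ndufs5 lies at chr4:123609823-123609872 on the minus strand and has a copy in Ndufs5-ps at chr16:42775994-42776043.
Atp5mc2: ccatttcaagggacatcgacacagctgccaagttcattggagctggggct
Ndufs5: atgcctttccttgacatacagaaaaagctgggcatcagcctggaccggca

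The 14 subunits with copies of more than 20% of their windows had a median level of 78.6 per kb, against 364 per kb for the 45 subunits with at most 5%. Single genes went against this order, such as Cox6c (22.2% copied, 1329 per kb) and Atp5mg (68.7%, 504 per kb). Levels of highly copied members are therefore uncertain, and how many reads were lost was not tested. Of the 3 genes that encode the same mature c-subunit, Atp5mc3 had a level of 471 per kb, Atp5mc1 one of 73.6 per kb and Atp5mc2 the lowest. Among mitochondrially encoded subunits, mt-Co2, mt-Co3, mt-Atp6, mt-Atp8 and mt-Nd4l, copied in 100% of their windows, had levels between 0 and 0.358 per kb. In mt-Nd1 and mt-Cytb, 0% of the windows were copied, and their levels were 13639.8 and 12826 per kb. Between these, levels did not follow the share, with 8063 per kb for mt-Co1 (51.1% copied) and 5871 per kb for mt-Nd6 (0%).

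**Figure D1:**
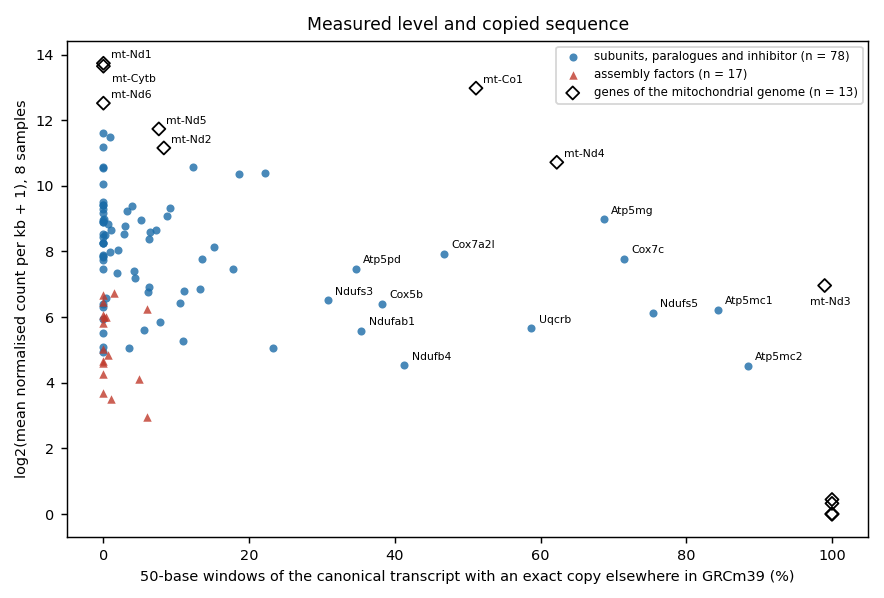
Share of a transcript's 50-base windows with an exact copy elsewhere in GRCm39 (x axis, %) against the level on a log2 axis (y axis, mean normalised count per kb + 1, 8 samples), with a point for each of the 95 nuclear members and the 13 protein genes of the mitochondrial genome. Atp5mc1, Atp5mc2 and Ndufs5 sit at the right with over 75% copied, and the 5 mitochondrial genes at 100% lie near 0.

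Stimulation with LPS/IFNγ left most of the 95 genes near their unstimulated level. In naïve Mϕ, the copper chaperone Cox17 and the Rieske iron-sulfur protein Uqcrfs1 rose, and the heme enzyme Cox10, the copper-handling factor Cox19, the complex I assembly factor Ndufaf4 and the core subunit Ndufs7 fell. Calls required an adjusted p under 0.05 (limma, Benjamini-Hochberg over all genes tested), and differences are on the scale of log2(normalised count + 1), which understates changes of low genes. For LPS vs Ctrl, 2 of 95 members were called higher and 4 lower. Without 1 library, the lower calls were 1 (either Ctrl sample) or 2 (any other), and the higher calls 0 (Ctrl 1 or LPS 2), 2 (either LPSEff sample) or 1 (any other). Of these 8 fits, Cox10 and Cox17 were called in 6, Ndufaf4 in 4, Uqcrfs1 in 2, and Ndufs7 and Cox19 in 1 each. Among all 16309 genes tested, 12.4% were called higher and 11.6% lower. The median log2 difference of the members was −0.08, that of all genes −0.01, and 78.9% of the members differed by less than 0.5, compared with 46.4% of all genes. These 2 sets were not matched for expression. The median member had 203 to 282 normalised counts in a sample, and 10868 of the 16309 genes had a mean of at least 50. The part of expression level in the 2 shares was not tested. When samples were rescaled to equal totals, the split became 1 higher and 31 lower, with medians of −0.48 for the members and −0.40 for all genes.

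For LPSEff vs Eff, the complex I accessory subunit Ndufb1 was called higher and Cox10 and Ndufs7 lower, which makes 1 and 2 of 95 members, against 10.7% and 8.95% of all genes. Without 1 library, Ndufb1 was called only when an LPS sample was left out, and the lower calls were 0 (Eff 1, Eff 2 or LPSEff 1), 1 (LPSEff 2), 2 (either LPS sample) or 3 (either Ctrl sample). The medians were −0.05 for the members and 0.01 for all genes. Equal totals gave 0 higher and 29 lower (medians −0.49 and −0.44). Tested as an interaction, the LPS/IFNγ effect differed between naïve and efferocytic Mϕ for 0 of the 95 members and for 0% of all genes by limma. At an unadjusted p under 0.05 there were 0 members and 311 of all genes, and edgeR and DESeq2 called 0 members as well.

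Averaged over naïve and efferocytic Mϕ, which uses all 8 samples, the LPS/IFNγ effect was called higher for 4 members and lower for 11. Of all genes, 17.9% were called higher and 18.6% lower. Stimulated and unstimulated samples did not overlap in 6 members that were higher and 17 that were lower (6.32% and 17.9%). Among all genes these shares were 17.0% and 18.9%. The medians were −0.07 for the members and 0.00 for all genes, while equal totals turned the split of calls into 1 higher and 54 lower. Leaving out 1 library changed these counts by more than 1.5 times in several cases, down to 2 higher (without Ctrl 2, Eff 1 or LPSEff 1). The lower calls were 8 without LPS 2, 4 without Eff 1, and 5 or 6 without any 1 of the other libraries. Cox10, Cox17, Ndufa8, Ndufaf4 and Ndufs7 were called under every alternative that kept all samples and tested them, equal totals included. Ndufaf4, with a mean of 42.8 normalised counts, was not part of the fit of genes with a mean of at least 50.

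**Figure D2:**
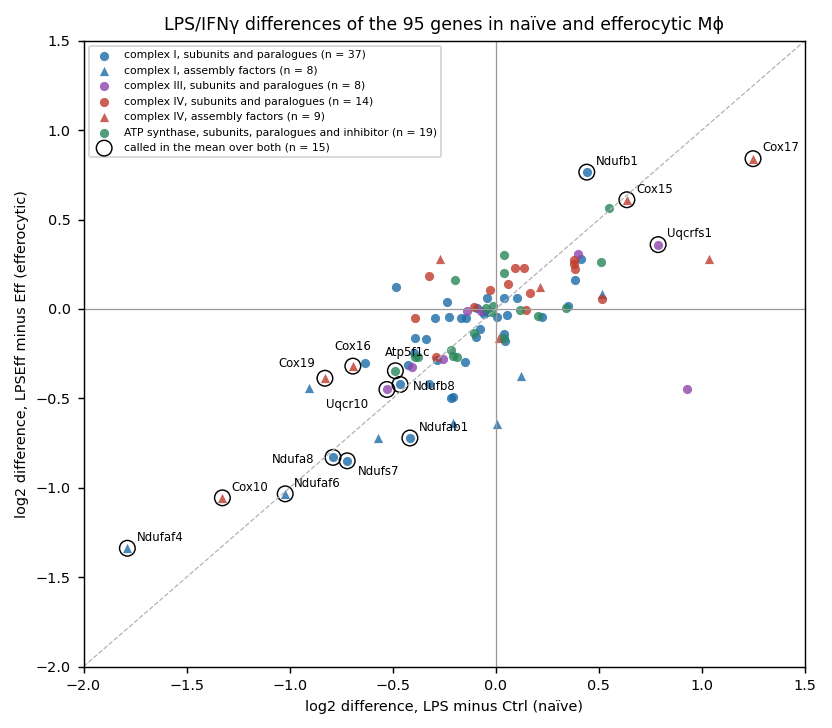
log2 difference LPS minus Ctrl in naïve Mϕ (x axis) against LPSEff minus Eff in efferocytic Mϕ (y axis) for the 95 members, coloured by complex, with triangles for assembly factors and rings around the 15 members called in the mean over both. Ndufaf4 (−1.79 and −1.34) and Cox10 (−1.33 and −1.06) lie farthest to the lower left, Cox17 (1.25 and 0.84) to the upper right, and most members lie within 0.5 of 0 on both axes.

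Of the 45 complex I members, 6 were called lower and 1, Ndufb1, higher in the mean over both kinds of Mϕ, beside 18.6% and 17.9% of all genes. Their median log2 difference was −0.14, with 35 of 45 members negative. Under quantile normalisation this median was −0.20 and under equal totals −0.56. Quantile normalisation called 2 core subunits, 3 accessory subunits and 3 assembly factors lower, and equal totals called 7, 20 and 7 lower and 0 higher. The 7 core subunits, which include those that carry the flavin and iron-sulfur centres, had a median of −0.29. Only Ndufs7 (ENSMUSG00000020153, GRCm39 chr10:80084941-80095049) was called among them. Its normalised counts were 223 and 237 (Ctrl), 124 and 155 (LPS), 270 and 240 (Eff), and 143 and 138 (LPSEff). Every stimulated sample was below every unstimulated one. The difference was −0.72 ± 0.21 (SE) in naïve and −0.85 ± 0.21 in efferocytic Mϕ (adjusted p = 0.0366 and 0.0223, limma). The core subunit Ndufv1, which binds NADH, differed by 0.01 in the mean, less than its SE of 0.14.

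Of the 30 accessory subunits, 1 was called higher and 3 lower, with a median of −0.10, beside 17.9% and 18.6% of all genes. edgeR called 2 higher and 3 lower, and DESeq2 1 and 2. Ndufa8 (ENSMUSG00000026895), a subunit of the intermembrane space face, had 295 and 463 (Ctrl), 199 and 228 (LPS), 372 and 517 (Eff), and 250 and 242 (LPSEff). The groups did not overlap, and the mean difference was −0.81 ± 0.19 (SE, adjusted p = 0.0104, limma). Ndufab1, the mitochondrial acyl carrier protein, fell by 0.57 on the log2 scale, and Ndufb8 of the membrane arm fell by 0.44. For Ndufab1, over 20% of the windows are copied. Exons of Ndufb8 overlap those of Gm20538 on the same strand over 68.6% of their length, so that part of its reads cannot be assigned to either. In the other direction, Ndufb1 had 337 and 350 (Ctrl), 389 and 561 (LPS), 294 and 315 (Eff), and 548 and 490 (LPSEff). All stimulated samples were higher, with a mean difference of 0.60 ± 0.15 (SE, adjusted p = 0.0149, limma). Under equal totals the difference was 0.18 and was not called.

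The 8 complex I assembly factors had the lowest median among the roles of the members, −0.53, with 7 of 8 negative. In the mean, 2 were called lower, beside 18.6% of all genes, while edgeR called 3 and DESeq2 1. Ndufaf4 (ENSMUSG00000028261) had 49.5 and 75.8 normalised counts in Ctrl, 16.8 and 17.3 (LPS), 56.1 and 72.7 (Eff), and 15.8 and 38.1 (LPSEff). No stimulated sample reached an unstimulated one, and the naïve difference of −1.79 ± 0.45 was the largest among the 95 members (SE, adjusted p = 0.0233, limma). Ndufaf6 had 39.99 and 30.1 (Ctrl), 14.2 and 19.3 (LPS), 45.6 and 35.3 (Eff), and 15.04 and 24.1 (LPSEff), again without overlap, and fell by 1.03 in the mean (adjusted p = 0.0221, limma). Values of the uncalled members were −0.67 for Ndufaf5, −0.65 for Ndufaf2, −0.42 for Ndufaf7, −0.32 for Ndufaf8, −0.13 for Ndufaf3 and 0.30 for Ndufaf1.

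Complex III had 8 members, of which 1 was called higher and 1 lower in the mean, and 0 and 4 under equal totals. Of all genes, 17.9% were called higher and 18.6% lower in the mean. Uqcrfs1 (ENSMUSG00000038462), the Rieske protein that takes electrons from ubiquinol, had 152 and 126 (Ctrl), 235 and 245 (LPS), 148 and 157 (Eff), and 177 and 217 (LPSEff). Stimulated samples were all above unstimulated ones, and the difference was 0.79 ± 0.21 in naïve Mϕ (SE, adjusted p = 0.0293) and 0.36 ± 0.21 in efferocytic Mϕ (adjusted p = 0.289, limma). Under equal totals, these were 0.39 and −0.09 and were not called. Uqcr10, a small subunit, fell by 0.49 in the mean (adjusted p = 0.0370, limma), although LPSEff 1 with 343 normalised counts was above Ctrl 1 with 337. Both edgeR and DESeq2 called 0 complex III members lower in the mean.

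**Figure D3:**
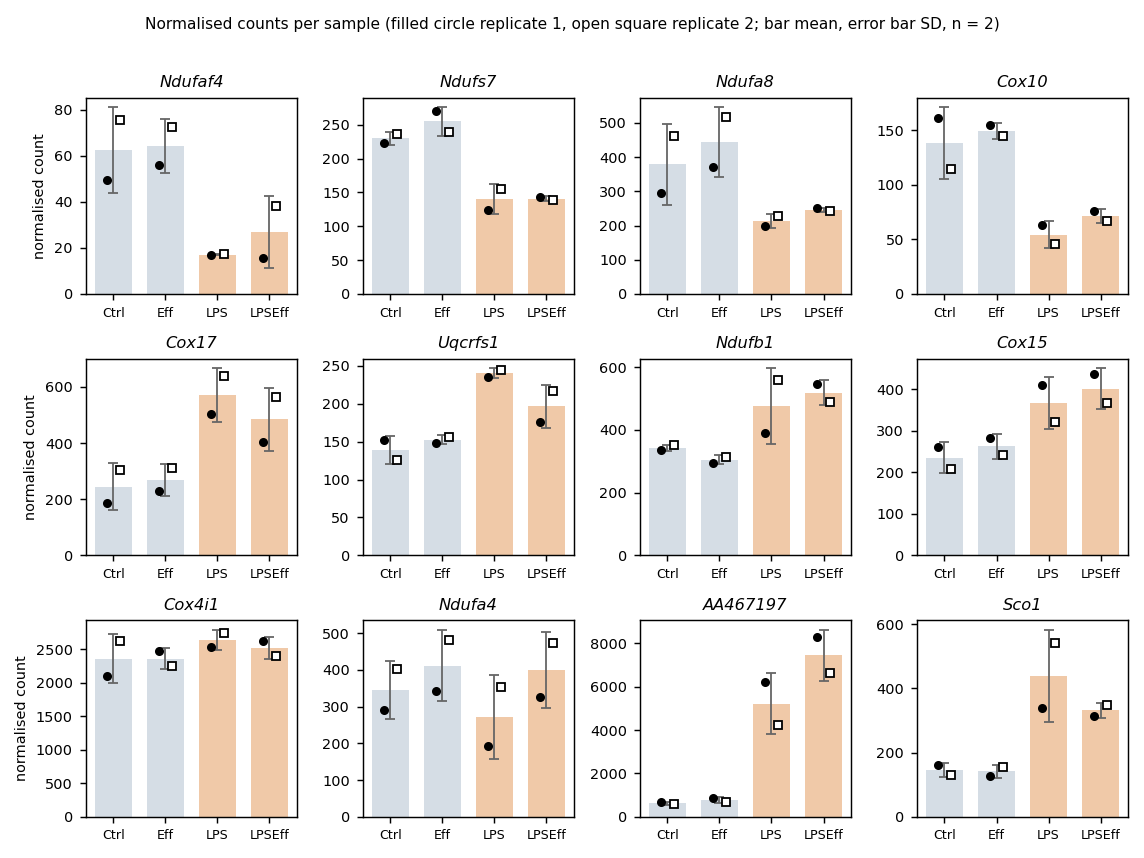
Normalised counts (y axes, from 0) of 12 genes in Ctrl, Eff, LPS and LPSEff, with bars for the mean, error bars for the SD (n = 2), filled circles for replicate 1 and open squares for replicate 2. Ndufaf4, Ndufs7, Ndufa8 and Cox10 are lower in all 4 stimulated samples, Cox17, Uqcrfs1, Ndufb1, Cox15, AA467197 and Sco1 are higher, and Cox4i1 and Ndufa4 overlap.

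Complex IV is the oxygen-reducing end of the chain, with 13 subunits, Cox7a2l and 9 assembly factors. Of the 13 subunits and Cox7a2l, 0 were called by limma in naïve, in efferocytic or in all Mϕ, with 0, 0 and 1 at an unadjusted p under 0.05, and edgeR and DESeq2 called 1 and 0 in the mean. Their median was 0.11 in the mean, with 10 of 14 positive, 0.04 under quantile normalisation and −0.31 under equal totals, where its direction turns. Quantile normalisation called 1 of these 14 lower in the mean, beside 3773 of all 16309 genes. Equal totals called 1 lower in naïve, 1 in efferocytic and 2 in all Mϕ, beside 4315, 4362 and 6337 of all genes. Of the 9 Cox assembly factors, 2 were called higher and 3 lower in the mean, and under equal totals 1 higher (Cox17) and 3 lower. In the mean, edgeR called 2 of them lower and DESeq2 1. Among all genes, limma called 12.4% higher and 11.6% lower in naïve Mϕ, and 10.7% and 8.95% in efferocytic Mϕ. In the mean these shares were 17.9% and 18.6%.

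Heme A of complex IV is made in consecutive steps by Cox10, which adds a farnesyl group to heme, and Cox15, which oxidises the product. Cox10 (ENSMUSG00000042148, GRCm39 chr11:63853131-63970305) had 162 and 115 (Ctrl), 63.4 and 45.7 (LPS), 155 and 145 (Eff), and 76.0 and 67.3 (LPSEff). Stimulated samples were all below the unstimulated ones, with differences of −1.33 ± 0.28 in naïve and −1.06 ± 0.28 in efferocytic Mϕ (SE, adjusted p = 0.0104 and 0.0301, limma). Cox15 had 261 and 209 (Ctrl), 410 and 322 (LPS), 283 and 241 (Eff), and 435 and 367 (LPSEff). Here the stimulated samples were all higher, and the mean difference was 0.62 ± 0.16 (SE, adjusted p = 0.0149, limma). In the mean, the enzymes of both steps were called in opposite directions, but the difference of Cox15 was 0.20 and not called under equal totals.

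Copper reaches complex IV through Cox17, which passes it to Sco1, Sco2 and Cox11. Cox17 (ENSMUSG00000046516) had 187 and 303 (Ctrl), 503 and 638 (LPS), 229 and 310 (Eff), and 405 and 562 (LPSEff). The stimulated samples were all above the unstimulated ones, by 1.25 ± 0.30 in naïve Mϕ (SE, adjusted p = 0.0187) and by 0.84 ± 0.30 in efferocytic Mϕ (adjusted p = 0.0878, limma). Cox19, a further copper-handling protein of the intermembrane space, had 112 and 123 (Ctrl), 78.9 and 54.8 (LPS), 124 and 120 (Eff), and 101 and 86.3 (LPSEff), and was called lower in naïve Mϕ with −0.83 ± 0.26 (adjusted p = 0.0487, limma). Cox16 fell by 0.51 in the mean. Its exons overlap those of S2bpcox16 on the same strand over 88.0% of their length, which makes its counts uncertain. Cox18, which inserts the mitochondrially encoded subunit 2, had 20.9 and 23.7 (Ctrl) and 46.6 and 46.7 (LPS), but missed the threshold (adjusted p = 0.0508, limma).

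Several complex IV subunits have isoforms that differ between tissues. Cox4i1 lay between 2098 and 2746 normalised counts over the 8 samples, and the hypoxia-inducible Cox4i2 between 16.9 and 38.6. Cox6a1 had 598 to 1109 and the muscle isoform Cox6a2 at most 7.52, and Cox7a2 had 377 to 655 and the muscle isoform Cox7a1 10.3 to 17.1. Cox6b1 had 158 to 184 and the testis isoform Cox6b2 at most 15.8, and Cox8a had 588 to 1012 and Cox8b at most 2.63. Cox6a2, Cox6b2 and Cox8b were under the mean of 10 and were not tested. The smallest adjusted p of the tested isoforms was that of Cox6a1, with 0.33 ± 0.13 in the mean LPS/IFNγ effect (SE, adjusted p = 0.0803, limma). Cox5a (268 to 397) and Cox5b (62.2 to 89.5) are different subunits, and neither was called.

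Ndufa4, once assigned to complex I and now known as a subunit of complex IV, has a paralogue in mouse, AA467197, also called Nmes1 or Coxfa4l3, whose product is known to take the place of Ndufa4. AA467197 is no member by its symbol. It had 678 and 566 normalised counts in Ctrl, 6219 and 4227 (LPS), 856 and 670 (Eff), and 8286 and 6616 (LPSEff). Every stimulated sample was far above every unstimulated one, by 3.05 ± 0.25 in naïve and 3.29 ± 0.25 in efferocytic Mϕ (SE, adjusted p = 0.000144 and 9.06e-05, limma), while LPSEff vs LPS gave 0.53 ± 0.25 (adjusted p = 0.531). Ndufa4 itself had 289 and 402 (Ctrl), 191 and 352 (LPS), 343 and 481 (Eff), and 325 and 472 (LPSEff). Its groups overlapped, and its differences were −0.39 ± 0.35 and −0.05 ± 0.35 (adjusted p = 0.475 and 0.943, limma). The third paralogue, Ndufa4l2, had at most 3.81 normalised counts.

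Of the 19 ATP synthase members, 0 were called in naïve and 0 in efferocytic Mϕ (limma, with 1 and 0 at an unadjusted p under 0.05), and edgeR and DESeq2 called 0 as well. Of all genes, limma called 12.4% higher and 11.6% lower in naïve Mϕ, and 10.7% and 8.95% in efferocytic Mϕ. Quantile normalisation called 4 lower in each, and equal totals 5 and 6 lower. In the mean, quantile normalisation called 4 and equal totals 11 lower, beside 3773 and 6337 of all 16309 genes. The limma fit of the deposited values called 1, the rotor subunit γ, Atp5f1c, with 901 and 808 (Ctrl), 551 and 672 (LPS), 744 and 788 (Eff), and 568 and 638 (LPSEff). Stimulated samples were all below unstimulated ones, as for 18.9% of all genes, and Atp5f1c fell by 0.42 (adjusted p = 0.0351, limma). In the mean, limma called 18.6% of all genes lower. Of 9 alternatives that kept all samples, 7 called Atp5f1c. edgeR called 1 and DESeq2 0 ATP synthase members lower in the mean. The catalytic β-subunit Atp5f1b and the α-subunit Atp5f1a differed by −0.02 and −0.12 in the mean, within their SE of 0.13 and 0.15. Atp5if1, which blocks the enzyme when it runs in reverse, had 316 and 533 (Ctrl) and 263 and 496 (LPS), with replicates farther apart than groups. Of the stalk subunit Atp5po, 2 Ensembl models were counted as separate members, with 100% of the exon length of the shorter model covered by Atp5po and Donson together, but 9.26% of that of the longer model by the shorter, so that part of their reads cannot be assigned.

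The symbol rule leaves out other nuclear genes of the pathway. Of 55 such genes (complex II, cytochrome c and electron transfer flavoprotein, and the assembly factors of all complexes), 3 were called higher and 22 lower in the mean over both kinds of Mϕ, with medians of −0.46, and of −0.50 under quantile normalisation and −0.88 under equal totals, where 2 were called higher and 40 lower. For all genes, as given above, the shares were 17.9% higher and 18.6% lower, against which the counts below are to be read as well. Among complex III assembly factors, 5 of 7 were called lower, with values of −1.28 for Bcs1l, which inserts the Rieske protein, and −1.17 for Uqcc5. Of 20 further complex IV assembly factors, 3 were called higher and 7 lower. Sco1, an acceptor of copper from Cox17, had 160 and 131 (Ctrl), 338 and 540 (LPS), 128 and 156 (Eff), and 315 and 348 (LPSEff). It was higher in all stimulated samples by 1.39 ± 0.19 (SE, adjusted p = 0.000722, limma). Its relative Sco2 had 204 and 192 (Ctrl), 69.8 and 92.4 (LPS), 290 and 239 (Eff), and 181 and 143 (LPSEff), and was lower by 1.00 in the mean on the log2 scale.

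Further called values in the mean were 0.92 for Coa5, 0.70 for Slirp, which binds mitochondrial mRNAs, and −1.33 for Pet117. The complex I factors Tmem186 and Tmem126b fell by 1.16 and 1.14, and Atpaf1 and Atpaf2, chaperones of the F1 subunits, fell by 0.86 and 0.81. Of 8 genes of complex II, Sdhd fell by 0.64 and Sdhc fell by 0.40. Of 6 genes for cytochrome c and electron transfer flavoprotein, Etfb fell by 0.59. In the TCA cycle list, 6 of 14 genes were called lower, led by Idh3a with −1.40. Among 18 genes of mitochondrial transcription and biogenesis, 1 was called higher and 6 lower, with the coactivators Ppargc1b at −2.32 and Pprc1 at −1.21. Of 8 tested mitochondrially encoded genes, mt-Co1 was called higher with 0.93. Under equal totals, Slirp (0.28) and mt-Co1 (0.50) were not called.

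**Figure D4:**
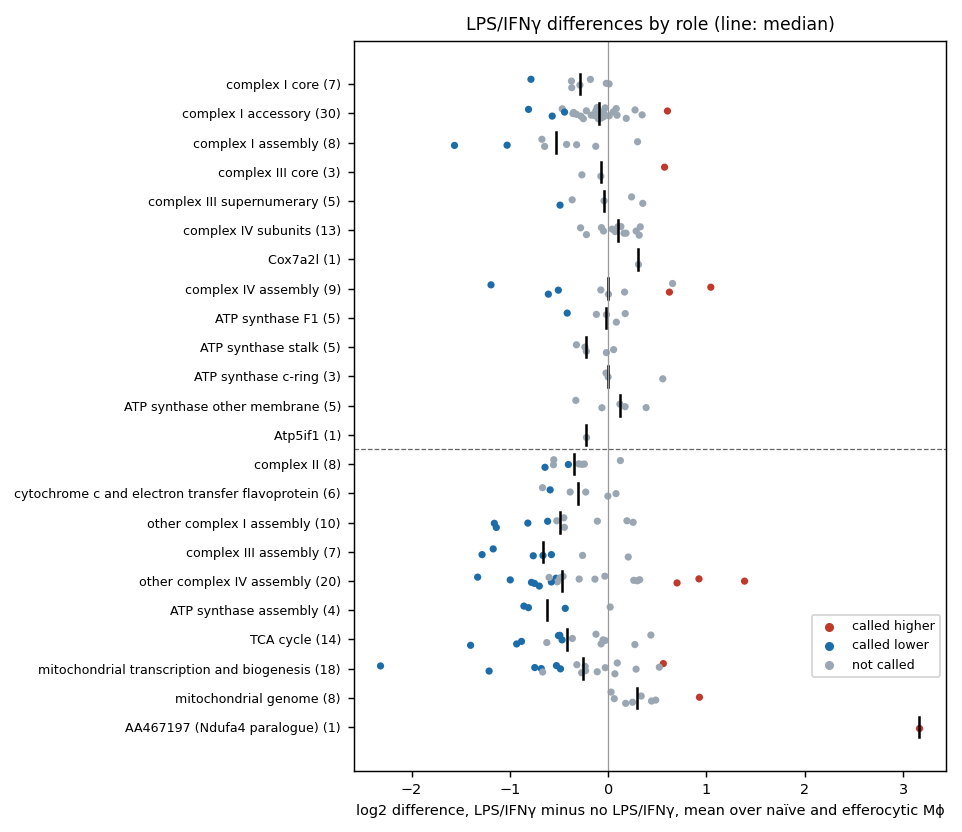
Mean log2 difference with LPS/IFNγ over naïve and efferocytic Mϕ (x axis), with a point for each gene, a line for the median of each role, members above the dashed line and other genes of the pathway below it. Medians are −0.53 for complex I assembly factors, −0.66 for complex III assembly factors and 0.29 for the mitochondrial genome, and AA467197 stands alone at 3.17.

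Promoters are shown for the 4 members called lower in the mean under every alternative that kept all samples and tested them. These are Cox10, Ndufs7, Ndufaf4 and Ndufa8. Each promoter runs from 250 bases before to 50 bases after the start given by RefSeq, on the strand of the gene (GRCm38.p6, a build earlier than that of the counts). Capitals mark exact matches, on either strand, to the words GCGCATGCG of NRF1, CCGGAAG of the ETS family (GABPA), AAGATGGCG of YY1 and TCAAGGTCA of ERRα, factors known for nuclear mitochondrial genes. Cox17 had no entry and is not shown. Cox10 at chr11:64079423-64079722 (minus strand) holds an ETS word and a YY1 word, Ndufs7 at chr10:80249199-80249498 (plus strand) a YY1 word, and Ndufaf4 at chr4:24897833-24898132 (plus strand) and Ndufa8 at chr2:36049289-36049588 (minus strand) the NRF1 word. The NRF1 word is nearly its own reverse complement, so that the capitals of Ndufaf4 hold it on both strands at overlapping positions.
Cox10: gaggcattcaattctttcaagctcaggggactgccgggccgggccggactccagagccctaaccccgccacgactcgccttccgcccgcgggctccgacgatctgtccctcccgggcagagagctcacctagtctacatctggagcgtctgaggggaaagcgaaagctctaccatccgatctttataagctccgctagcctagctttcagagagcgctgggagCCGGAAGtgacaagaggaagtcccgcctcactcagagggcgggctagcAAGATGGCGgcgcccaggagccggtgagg
Ndufs7: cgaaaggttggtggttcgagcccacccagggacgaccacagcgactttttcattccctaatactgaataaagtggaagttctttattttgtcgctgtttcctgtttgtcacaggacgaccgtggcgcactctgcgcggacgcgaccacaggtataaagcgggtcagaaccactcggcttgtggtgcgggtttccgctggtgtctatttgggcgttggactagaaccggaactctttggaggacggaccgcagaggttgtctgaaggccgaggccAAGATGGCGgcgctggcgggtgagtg
Ndufaf4: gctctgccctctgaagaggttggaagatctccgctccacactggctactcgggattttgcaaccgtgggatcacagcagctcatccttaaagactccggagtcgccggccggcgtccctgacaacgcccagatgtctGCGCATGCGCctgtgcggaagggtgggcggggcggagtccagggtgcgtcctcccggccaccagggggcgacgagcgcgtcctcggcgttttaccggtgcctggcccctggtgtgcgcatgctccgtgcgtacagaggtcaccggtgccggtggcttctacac
Ndufa8: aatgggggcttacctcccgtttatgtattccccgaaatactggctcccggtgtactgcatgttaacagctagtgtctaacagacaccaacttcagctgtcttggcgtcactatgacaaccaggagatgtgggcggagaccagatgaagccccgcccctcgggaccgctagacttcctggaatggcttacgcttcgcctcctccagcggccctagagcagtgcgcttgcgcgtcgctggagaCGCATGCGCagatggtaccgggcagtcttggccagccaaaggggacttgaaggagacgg

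A promoter was found for 77 of the 95 members. The NRF1 word occurred in 10 of them (13.0%), against 2.61% of 17491 protein-coding genes in the same table. The YY1 word occurred in 9 (11.7% against 2.14%), the ETS word in 21 (27.3% against 12.9%) and the ERRα word in 1 (1.30% against 0.377%). At least 1 word was present in 34 members (44.2%) and in 16.9% of protein-coding genes. Members had to reach a mean of 10 normalised counts and the 17491 genes did not, so that the 2 sets also differ in expression. A match is a description of the sequence only. Cox15, which was higher, has the ETS word, and Ndufb1 and Uqcrfs1, which were higher as well, have none of the 4.

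No member passed the test between efferocytic and naïve Mϕ in the limma fit of the 4 group means. For Eff vs Ctrl, 0 members were called, against 0.251% of all genes, and the median log2 difference was 0.05, with 1 member at an unadjusted p under 0.05. For LPSEff vs LPS, 0 were called, against 0.773% of all genes, with a median of 0.04 and again 1 member at an unadjusted p under 0.05. In the mean over unstimulated and stimulated Mϕ, 0 were called, against 1.92% of all genes, with 7 at an unadjusted p under 0.05. edgeR and DESeq2 called 0 members in all these comparisons. With the replicate number as a block, limma called Cox11, Atp5mg and Ndufa4 higher in LPSEff vs LPS and in the mean. The result thus depends on this choice, and the labels do not state that equal numbers mark a shared preparation. The fibroblast marker sums were higher in all efferocytic than in all naïve samples, and their part in these values was not tested.

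The smallest p-values in these comparisons belonged to assembly factors. Ndufaf8 had 43.8 and 83.9 (Ctrl), 60.8 and 60.9 (LPS), 139 and 107 (Eff), and 91.05 and 66.0 (LPSEff), with 0.99 ± 0.35 for Eff vs Ctrl (SE, adjusted p = 0.622, limma). Cox11, which delivers copper to subunit 1 of complex IV, had 72.4 and 64.2 (Ctrl), 50.4 and 63.0 (LPS), 85.9 and 90.3 (Eff), and 114 and 100 (LPSEff). Its efferocytic samples were above the naïve ones in both settings, with 0.37 ± 0.25 for Eff vs Ctrl (adjusted p = 0.999) and 0.91 ± 0.25 for LPSEff vs LPS (adjusted p = 0.204, limma). Next were Cox6a1 (0.37) and Ndufv3 (0.47) in Eff vs Ctrl, Ndufc1 (0.48) and Cox7a2l (−0.41) in LPSEff vs LPS, and Cox7c (0.82) in the mean. Windows of Cox7c and Cox7a2l are copied in 71.5% and 46.8%.

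The median member differed between replicates by 0.238 to 0.280 on the log2 scale, and replicate 1 was below replicate 2 in 69 of the 95 members of Ctrl and of LPS, in 64 of Eff and in 62 of LPSEff. The median of replicate 1 minus replicate 2 was −0.20 (Ctrl), −0.17 (LPS), −0.13 (Eff) and −0.14 (LPSEff) for the members. For all genes tested it was negative as well, with −0.10, −0.13, −0.08 and −0.08. The widest gaps were those of Uqcrb in Ctrl (5.71 and 39.9) and LPS (20.7 and 44.7), and of Atp5mc2 in Eff (26.3 and 7.06) and LPSEff (42.0 and 10.2), both of them highly copied. In Ctrl 1, the value of Uqcrb corresponds to 3 reads. Neither gene was called by limma, and the part of depth, replicate spread or copied windows in this was not tested. As a share of all normalised counts, the members made up 0.573% and 0.650% (Ctrl), 0.626% and 0.648% (Eff), 0.452% and 0.447% (LPS), and 0.451% and 0.452% (LPSEff). Their sum lay between 37973 and 45220 in all samples, while the normalised totals were 6.59e+06 to 6.95e+06 without and 8.47e+06 to 9.49e+06 with LPS/IFNγ.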

How the data were processed

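Total RNA of 8 BMDM samples was depleted of rRNA (RiboCop), turned into libraries with the TruSeq Ribo Profile kit and sequenced single-end for 50 cycles. Per the labels and the methods, adapters were cut with cutadapt, rRNA was filtered with bowtie2, STAR aligned the remaining reads to mm39, and htseq-count (default mode) assigned them to genes. Tool versions and the annotation release are not given in the sources used here. What the authors deposited is, for each gene, a signal named normalised count: reads divided by the size factor of the sample (DESeq2). All deposited values (100%) were whole multiples of the smallest in their sample, within 0.001 reads, from which reads were recovered. GENCODE named 54749 of 55359 identifiers (98.9%).

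limma (3.58.1, R 4.3.3) with a trend was fitted to log2(normalised count + 1) for 16309 genes whose mean reached 10. The fit held 4 group means, no block and 4 residual degrees of freedom. Tests were two-sided, with Benjamini-Hochberg adjustment over all genes. Permuting 2 against 2 samples exactly gives no p below 0.333. The code of the fit was run on simulated counts. These had the same dispersion for all genes, far fewer changed genes and no shared differences between replicates. They therefore do not show how accurate the fit is for these data. Alternatives were pseudocounts of 0.5 and 5, means above 0 or at least 50, the compared groups alone, a replicate block, quantile normalisation, equal totals, edgeR (4.0.16, TMM) and DESeq2 (1.42.0) on recovered reads, and leaving out each replicate. Members and lists were chosen with earlier results of these data known.

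Named genes are called members (the 5 largest each way whose groups do not overlap), the 3 smallest p-values where fewer than 3 were called, the highest and lowest level per kb of each complex, isoform sets, assembly factors, up to 3 called genes per related list and comparison, and the widest replicate gaps. Ndufab1, Ndufb8, Uqcr10, Atp5f1c, Ndufv1, Atp5f1a, Ndufs5, Cox7c, Atp5mg and Slirp were named after their values were seen. Not every member is reported here by name. Promoters are from RefSeq (GRCm38.p6).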

Additional observations from a re-analysis of the deposited data

How the results depend on the processing

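With the replicate number as a block (3 residual degrees of freedom), calls rose to 6 higher and 13 lower in LPS vs Ctrl, 3 and 8 in LPSEff vs Eff, 9 and 22 in the mean LPS/IFNγ effect, and 3 higher each (Cox11, Atp5mg and Ndufa4) in LPSEff vs LPS, with adjusted p from 0.0379 to 0.0491, and in the mean efferocytosis effect, with 0.0155 to 0.0356, where the fit without the block called 0. The replicate numbers are not stated to mark a shared preparation. Differences between replicates 1 and 2 correlated between groups with r from 0.404 to 0.595 over all genes tested and from 0.330 to 0.774 over the members. Genes are not independent replicates. Equal totals gave 1 and 31 calls in LPS vs Ctrl, 0 and 29 in LPSEff vs Eff and 1 and 54 in the mean, with member medians of −0.48 and −0.49. This scaling divides each sample by its normalised total, which was 6.59e+06 to 6.95e+06 without and 8.47e+06 to 9.49e+06 with LPS/IFNγ. By this division the median of all genes moved to −0.40 and −0.44, from −0.01 and 0.01 under the deposited size factors. Uqcrfs1 in LPSEff vs Eff turned to −0.088. Which scaling is nearer to the RNA content of the cells was not tested. Quantile normalisation gave 9 lower calls in LPS vs Ctrl and 9 in LPSEff vs Eff. Testing all genes with a mean above 0 gave 1 higher and 2 lower in LPS vs Ctrl, 0 and 0 in LPSEff vs Eff, and 5 lower in the mean. With only the compared groups in the fit, LPS vs Ctrl gave 1 higher and 2 lower. edgeR gave 2 and DESeq2 2 higher in LPSEff vs Eff, and DESeq2 5 lower in the mean. Except for the shift made by dividing by the totals, the cause was not tested.

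Leaving out 1 replicate gave 0 to 2 higher and 1 to 2 lower in LPS vs Ctrl, 0 to 1 and 0 to 3 in LPSEff vs Eff, and 2 to 4 and 4 to 8 in the mean. The member medians ranged from −0.22 to 0.0398 in LPS vs Ctrl, from −0.18 to 0.00709 in LPSEff vs Eff, from −0.0579 to 0.19 in Eff vs Ctrl and from −0.0647 to 0.13 in LPSEff vs LPS. Of the 15 members called in the mean, 15 were also called with the block (31 calls), 13 by edgeR (16 calls), 9 by DESeq2 (9 calls) and 13 after quantile normalisation (21 calls). Calls in Eff vs Ctrl and in the interaction were 0 under every alternative fitted. With n = 2 per group, the medians of samples of 1 group varied by an SD of 0.132, which limits statements about small shifts of the members.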
